A study of Mus musculus with 14 samples.

Results

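The 10 genes described here are used to tell marginal zone B cells and B1 cells, the innate-like B cells of mice, from follicular B cells, most of them by a high level and Fcer2a, a follicular marker, by a low one. They are the transcription factor genes Bhlhe40 and Bhlhe41, the Notch receptor gene Notch2 and its target Dtx1, the surface protein genes Cd1d1, Cd9, Cr2, Fcer2a and Cd5, and the lipid receptor gene S1pr3. They were chosen by symbol, with earlier results of these data known. Each was found as 1 of the 41053 gene rows in both of the 2 deposited count tables. RNA abundance had been measured by RNA-seq in 14 libraries of spleen cells from C57BL/6 mice, in 4 groups. Germinal center (GC) B cells, which proliferate in response to antigen and hypermutate their immunoglobulin loci, gave 4 libraries with the genotype Tet2 knock-out (KO, replicates 2 to 5) and 3 libraries of wild-type (WT) genotype, replicates 1, 3 and 4. Lymphoma B cells gave 2 libraries with a short hairpin RNA against Tet2 (shTet2, replicates 1 and 2) and 5 control libraries with a wild-type Tet2 genotype (replicates 1 to 5). The sources used here give no purification scheme for the GC B cells, no deleted segment of Tet2, no origin of the lymphoma, no age and no further allele. Nothing in the labels ties replicates to separate animals, and p-values therefore measure only the spread between these libraries.

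TET2 oxidises methylated cytosine in DNA, a step towards loss of the methyl mark. Marginal zone B cells sit at the border of the splenic follicle, need NOTCH2 signals to form, and carry much CD21 and CD1d and little CD23, while follicular B cells carry CD23. B1 cells are self-renewing B cells that often carry CD5, and BHLHE41, together with its relative BHLHE40, is known for its part in their development and upkeep. GC B cells are another state of the same lineage, so the question for these genes is how much of their RNA is present in GC and lymphoma B cells and whether it differs when TET2 is lost.

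Promoter sequences of RefSeq on build GRCm38.p6, each holding 250 bases before and 50 bases after a gene's start, were matched for 8 of the 10 genes, in 10 windows. Those of Bhlhe41 and Dtx1 are shown because both genes passed the test in GC B cells, and those of Cd9 and Cr2 because they hold the letters searched for the Notch effector RBPJ. Each is written 5′ to 3′ along the gene's own strand, and capitals mark a match to CACGTG (an E-box, the class of site that BHLHE41 and BHLHE40 bind) or GTGGGAA (RBPJ). Both strands were searched, GTGGGAA reading TTCCCAC on the other strand, and the 2 motifs do not overlap here.
Bhlhe41, chr6:145865371-145865670, minus strand: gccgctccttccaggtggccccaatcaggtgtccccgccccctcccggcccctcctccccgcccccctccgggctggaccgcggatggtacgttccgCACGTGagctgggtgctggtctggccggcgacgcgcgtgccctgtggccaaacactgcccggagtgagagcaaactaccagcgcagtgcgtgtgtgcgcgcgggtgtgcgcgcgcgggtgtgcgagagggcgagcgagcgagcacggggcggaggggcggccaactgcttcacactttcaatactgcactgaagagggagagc
Dtx1, chr5:120711620-120711919, minus strand: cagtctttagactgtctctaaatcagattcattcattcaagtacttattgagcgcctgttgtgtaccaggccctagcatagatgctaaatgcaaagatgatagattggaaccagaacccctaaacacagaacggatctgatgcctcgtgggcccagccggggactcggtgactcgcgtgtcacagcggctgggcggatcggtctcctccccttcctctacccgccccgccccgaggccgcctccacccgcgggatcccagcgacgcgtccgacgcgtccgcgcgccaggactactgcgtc
Cd9, chr6:125494711-125495010, minus strand: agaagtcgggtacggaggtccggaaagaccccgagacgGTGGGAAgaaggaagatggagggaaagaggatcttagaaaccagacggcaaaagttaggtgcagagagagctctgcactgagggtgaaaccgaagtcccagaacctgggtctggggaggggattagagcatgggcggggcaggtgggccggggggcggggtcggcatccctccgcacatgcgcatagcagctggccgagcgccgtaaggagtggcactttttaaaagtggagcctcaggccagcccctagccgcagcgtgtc
Cr2, chr1:195176670-195176969, minus strand: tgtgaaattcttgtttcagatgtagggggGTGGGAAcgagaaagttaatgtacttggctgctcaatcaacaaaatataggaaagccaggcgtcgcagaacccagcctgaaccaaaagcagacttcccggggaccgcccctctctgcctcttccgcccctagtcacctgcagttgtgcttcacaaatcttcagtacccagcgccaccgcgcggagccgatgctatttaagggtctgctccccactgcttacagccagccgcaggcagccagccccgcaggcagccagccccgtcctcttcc
The E-box of Bhlhe41 began at -153 from the start, and 7.15% of all 32851 windows held one. The GTGGGAA match began at -212 in Cd9 and at -221 in Cr2, and 6.38% of all windows held one. The other windows of the 10 genes, Dtx1 and Notch2 included, held neither. The Dtx1 window lay wholly inside the span over which Dtx1 was counted (chr5:120680202-120711927). It therefore holds no base upstream of the start as counted. CpG dinucleotides, the letters that carry the methyl mark, numbered 41 in the Notch2 window, 32 in Bhlhe41, 26 in Dtx1, 18 in Cd9, 14 each in Cr2 and S1pr3 and 3 in Cd5, against a median of 7 over all windows. The 3 Fcer2a windows held 3, 3 and 4. DNA methylation was not measured here, and a motif match is a description of the letters only.

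Total read counts were 29487244 to 30330950 in KO libraries and 27191862 to 30434184 in WT libraries, and 9386084 to 14741588 in shTet2 libraries and 6691167 to 18598386 in control lymphoma libraries. Structural RNA rows took 44.97% to 54.0% of the counts in shTet2 libraries and 57.5% to 80.7% in control lymphoma libraries, which left 5165550 to 6775949 and 1525920 to 6282880 other counts, so the lymphoma values are less precise. Values are given as CPM, that is, counts made comparable between libraries of 1 table by TMM factors and total depth. Tet2 itself had 11.9, 14.6, 13.3 and 14.5 CPM in the libraries labelled KO, against 13.4, 11.8 and 14.2 CPM in WT libraries, so the RNA level does not separate the labels. It had 54.9 and 50.7 CPM in the libraries labelled shTet2, against 57.5 to 68.0 CPM in controls, a log2 difference of -0.21 that did not pass the test (SE 0.10, adjusted p = 0.295). Counts over the whole gene cannot show the loss of a part of it, so every direction below rests on the labels KO and shTet2. Most core GC markers had a higher level in WT GC libraries than in control lymphoma libraries. In 1 model of all 14 libraries, 9 of 10 were lower and 1 higher in control lymphoma. Of all genes tested in that model, 40.4% were called lower and 40.2% higher. Mybl1, a transcription factor gene of GC B cells, averaged 217 ± 22.6 CPM in KO and 231 ± 43.0 CPM in WT libraries (SD, n = 4 and 3). It averaged 44.9 ± 8.39 CPM in shTet2 and 6.54 ± 4.26 CPM in control lymphoma libraries (SD, n = 2 and 5). The GC and lymphoma values of Mybl1 come from separately scaled tables and are not on 1 scale.

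In GC B cells, 3 of the 10 genes passed the test, all lower in KO: Bhlhe41, Cd1d1 and Dtx1. The test was edgeR's quasi-likelihood test with Benjamini-Hochberg adjustment over all 13600 genes tested, at an adjusted p under 0.05, and it called 6.49% of all genes, 4.57% as lower in KO and 1.92% as higher. All 10 genes passed the filter on low counts. In 5 of the 10 genes every KO library lay below every WT library, namely in these 3 and in Notch2 and Cd9, against 10.6% of all genes tested. For the other 5 genes, Bhlhe40, S1pr3, Cr2, Fcer2a and Cd5, the groups overlapped. The median log2 fold change, KO over WT, was -0.26 over the 10 genes and 0.01 over all genes tested.

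**Figure D1:**
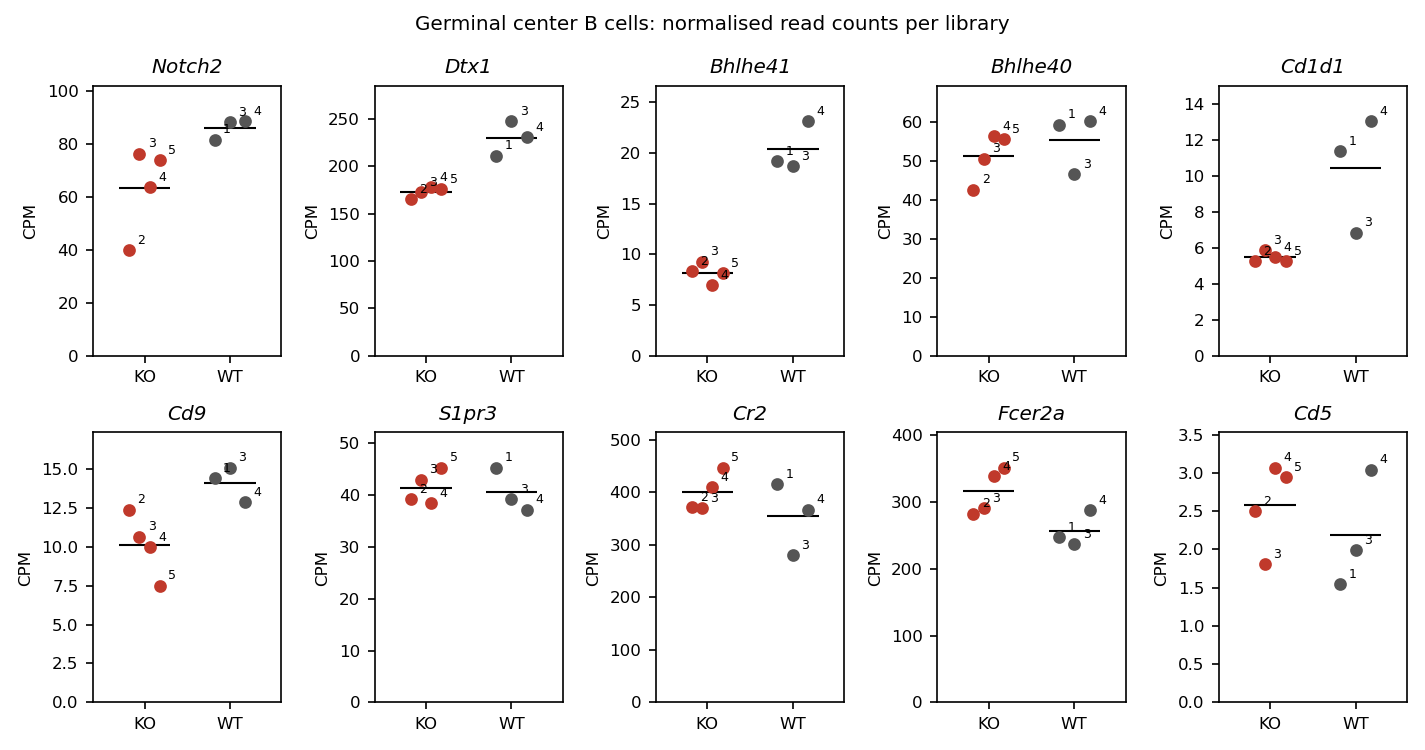
CPM of each gene in the 4 KO libraries (left, red) and the 3 WT libraries (right, grey) of GC B cells; each point is a library with its replicate number and each line is the group mean. KO points lie below all WT points for Notch2, Dtx1, Bhlhe41, Cd1d1 and Cd9, with Bhlhe41 at 6.97 to 9.29 CPM in KO and 18.7 to 23.1 CPM in WT.

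Among the Notch genes, the receptor gene Notch2 (chr3:98013538-98150367, plus strand) had 39.9, 76.5, 63.7 and 74.0 CPM in KO libraries, against 81.8, 88.3 and 88.7 CPM in WT libraries. All KO libraries were lower and KO replicate 2 was the lowest, yet the log2 fold change of -0.44 (SE 0.20) did not pass the test (adjusted p = 0.274). Dtx1 (chr5:120680202-120711927, minus strand), a Notch target that encodes the ubiquitin ligase Deltex 1, had 165, 172, 178 and 176 CPM in KO libraries, against 211, 247 and 231 CPM in WT libraries. The KO libraries lay close together and below WT, and the log2 fold change was -0.41 (SE 0.08, adjusted p = 0.00539). In a list of 34 further Notch pathway genes, of which 31 were tested, 0 rose and 1 fell, with a median log2 fold change of -0.03. The one that fell was Maml2, a Mastermind coactivator, at 9.96 ± 0.784 CPM in KO and 13.6 ± 0.940 CPM in WT libraries (SD, n = 4 and 3; log2 fold change -0.45, SE 0.13, adjusted p = 0.0480). Hes1, a classical Notch target, had a log2 fold change of -0.13 (adjusted p = 0.639), and Rbpj, the DNA-binding partner of Notch, one of -0.28 (adjusted p = 0.272).

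Bhlhe41 (chr6:145858243-145865558, minus strand), the transcriptional repressor whose E-box is printed above, showed the largest fold change of the 10 genes. It had 8.37, 9.29, 6.97 and 8.13 CPM in KO libraries, against 19.2, 18.7 and 23.1 CPM in WT libraries. The highest KO library was thus far below the lowest WT library, and the log2 fold change was -1.31 (SE 0.13, adjusted p = 3.64e-05). Its relative Bhlhe40 (chr6:108660629-108666925, plus strand) had 42.7, 50.7, 56.6 and 55.7 CPM in KO libraries, against 59.4, 46.8 and 60.3 CPM in WT libraries. These groups overlapped, and the log2 fold change was -0.11 (SE 0.11; adjusted p = 0.665). Exons of Bhlhe40 share 118 bases with 0610040F04Rik on the other strand, and as counting used no strand option, reads there cannot be assigned to one of them.

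Cd1d1 (chr3:86995834-86999441, minus strand) encodes CD1d, which presents lipids to natural killer T cells. It had 5.27, 5.88, 5.47 and 5.25 CPM in KO libraries, against 11.4, 6.83 and 13.02 CPM in WT libraries. The KO libraries were within a narrow range and the WT libraries were widely spread, WT replicate 3 being nearest to KO. Its log2 fold change was -0.93 (SE 0.19, adjusted p = 0.00792). Cd9 (chr6:125460266-125494791, minus strand), a tetraspanin carried by marginal zone B cells, B1 cells and plasma cells, had 12.4, 10.6, 9.97 and 7.49 CPM in KO libraries, against 14.4, 15.1 and 12.9 CPM in WT libraries. It was lower in all KO libraries by a small margin, and its log2 fold change of -0.48 (SE 0.16) did not pass the test (adjusted p = 0.0850). S1pr3 (chr13:51408618-51422797, plus strand), a receptor for the lipid sphingosine 1-phosphate that is abundant on marginal zone B cells, had 39.1, 43.0, 38.4 and 45.2 CPM in KO libraries, against 45.2, 39.2 and 37.1 CPM in WT libraries. The groups lay on the same range, and the log2 fold change was 0.03 (SE 0.10, adjusted p = 0.911).

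Cr2 (chr1:195136811-195176715, minus strand) encodes the complement receptors CD21 and CD35. It had 371, 370, 410 and 447 CPM in KO libraries, against 416, 280 and 367 CPM in WT libraries, with overlapping groups (log2 fold change 0.17, SE 0.12, adjusted p = 0.467). Fcer2a (chr8:3681737-3694174, minus strand), which encodes the low-affinity IgE receptor CD23, had 283, 291, 339 and 352 CPM in KO libraries, against 247, 238 and 288 CPM in WT libraries. KO replicates 4 and 5 were the highest, the groups overlapped between KO replicate 2 and WT replicate 4, and the log2 fold change was 0.30 (SE 0.10, adjusted p = 0.0969). Without KO replicate 2, Fcer2a and Cd9 both passed the test (adjusted p = 0.0481 and 0.0324), Fcer2a higher and Cd9 lower in KO, which brought the count of genes past the threshold to 5. Cd5 (chr19:10718143-10738974, minus strand), a negative regulator of receptor signalling on T cells and B1a cells, was scarce. It had 2.50, 1.81, 3.07 and 2.94 CPM in KO libraries, against 1.55, 1.99 and 3.04 CPM in WT libraries, with overlapping groups (log2 fold change 0.24, SE 0.27, adjusted p = 0.699).

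Other genes of the same cell types and families were listed by function, also with earlier results of these data known. Of 24 other marginal zone and B1 cell genes, 23 were tested, of which 10 fell and 0 rose, with a median log2 fold change of -0.36. Fcrl5, an Fc receptor-like protein of these cells, had 12.2 ± 0.984 CPM in KO and 26.7 ± 1.87 CPM in WT libraries (SD, n = 4 and 3; log2 fold change -1.13, SE 0.11, adjusted p = 2.72e-05). Plxnd1, a semaphorin receptor, had 4.12 ± 0.362 CPM in KO and 10.5 ± 2.92 CPM in WT libraries (SD; log2 fold change -1.34, SE 0.19). Ptpn22, a phosphatase of antigen receptor signalling, had 20.8 ± 1.17 CPM in KO and 32.3 ± 3.94 CPM in WT libraries (SD; log2 fold change -0.63, SE 0.11). The other 7 that fell were Itgam, S1pr1, Cd36, Nfatc1, Spn, Asb2 and Cd300lf, of which Itgam is also a myeloid integrin. Of 11 tested follicular B-cell genes, 4 fell and 0 rose (median -0.30), among them the chemokine receptor gene Ccr7 at 16.6 ± 2.75 CPM in KO and 30.7 ± 6.54 CPM in WT libraries (SD) and the oxysterol receptor gene Gpr183 at 11.9 ± 1.69 CPM in KO and 19.0 ± 2.74 CPM in WT libraries. Of 11 tested sphingosine 1-phosphate genes, 2 fell and 0 rose (median -0.12). They were S1pr5, at 0.126 ± 0.0644 CPM in KO and 1.78 ± 0.772 CPM in WT libraries (SD), and S1pr1, at 46.1 ± 5.68 CPM in KO and 65.5 ± 5.78 CPM in WT libraries.

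Of 16 tested tetraspanin genes, the family of Cd9, 2 fell, Tspan17 (log2 fold change -0.76) and Tspan32 (-0.42), and 0 rose (median -0.13). Over all genes tested, 4.57% were called lower. All 10 core GC B-cell markers were tested, and 0 passed the test and 0 had an unadjusted p under 0.05 (median -0.02), with Cd79a, a part of the B-cell receptor, at 1082 ± 75.4 CPM in KO and 1217 ± 99.4 CPM in WT libraries (adjusted p = 0.316). Of 7 tested plasma cell markers, 0 passed the test and 1, Prdm1, had an unadjusted p under 0.05 (adjusted p = 0.235).

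**Figure D2:**
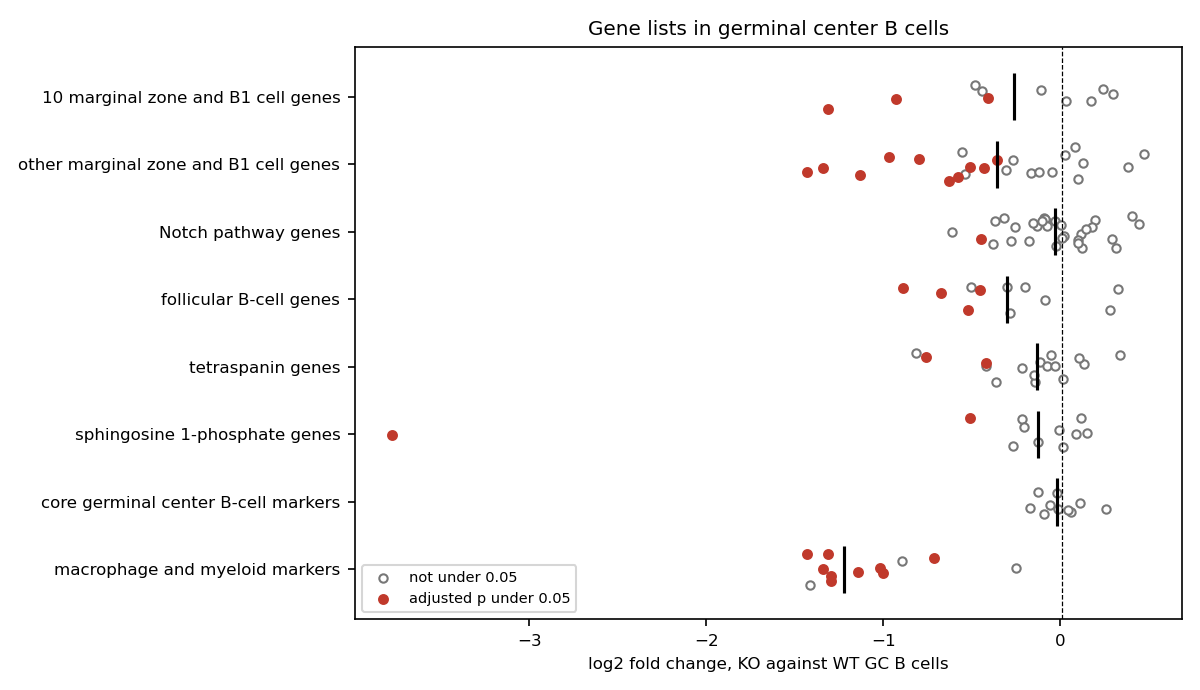
Log2 fold change, KO over WT GC B cells, of each tested gene in the 10-gene set and in 7 lists; filled red points passed the test, open points did not, thick bars are list medians and the dashed line is the median of all genes tested (0.01). The medians of the 10 genes (-0.26), other marginal zone and B1 genes (-0.36) and myeloid markers (-1.22) lie left of the core GC markers (-0.02).

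Markers of other cells moved in the same comparison. Of 12 tested macrophage and myeloid markers, 9 fell and 0 rose (median -1.22). The summed level of all 18 was 43.1 to 53.0 CPM in KO and 81.0 to 108 CPM in WT libraries, highest in WT replicate 4. Among the genes with every KO library below every WT library, Bhlhe41, Cd1d1 and Notch2 were highest in WT replicate 4. Dtx1 and Cd9 were highest in WT replicate 3. The F4/80 gene Emr1 had 4.89 ± 0.502 CPM in KO and 12.4 ± 3.59 CPM in WT libraries, the complement gene C1qa 1.85 ± 0.307 CPM in KO and 4.61 ± 0.632 CPM in WT libraries, and the adhesion gene Vcam1 3.46 ± 1.02 CPM in KO and 8.50 ± 1.67 CPM in WT libraries (SD, n = 4 and 3). Without WT replicate 4 the log2 fold change was -1.21 for Bhlhe41 and -0.74 for Cd1d1 (adjusted p = 0.0489 for Cd1d1), and both still passed the test. Follicular dendritic cell markers, which stromal cells and in part B cells express, summed to 182 to 195 CPM in KO and 229 to 236 CPM in WT libraries. Most of these sums was Fcgr2b (171 ± 7.35 CPM in KO and 209 ± 3.52 CPM in WT libraries). Of 6 tested, 2 were lower (Vcam1 and Fcgr2b), and Cxcl13 and Pdpn were at 0 in both groups. For T-cell markers the sums were 134 to 156 CPM in KO and 179 to 219 CPM in WT libraries. They were mostly Lck, which fell (133 ± 11.2 CPM in KO and 193 ± 24.1 CPM in WT libraries). Thy1 rose (2.31 ± 0.157 CPM in KO and 0.408 ± 0.231 CPM in WT libraries). Of 8 tested T-cell markers, 1 was higher and 1 lower by the test, with a median log2 fold change of 0.21. For natural killer cell markers the sums were 11.2 to 14.4 CPM in KO and 68.2 to 84.2 CPM in WT libraries. They were mostly Tbx21 (9.94 ± 1.91 CPM in KO and 71.8 ± 8.17 CPM in WT libraries), which activated B cells can also express. Prf1 was lower as well. Of 5 tested natural killer cell markers, 2 were lower and 0 higher by the test, with a median log2 fold change of 0.03. Platelet markers summed to 99.2 to 118 CPM in KO and 118 to 132 CPM in WT libraries, with 0 of 2 tested past the threshold by edgeR and 0 at an unadjusted p under 0.05. Nearly all of these sums was Itgb3 (108 ± 7.39 CPM in KO and 122 ± 7.84 CPM in WT libraries). Of the 10 listed platelet markers, 3 were at 0 in KO and 6 in WT libraries. The part of these cells in the changes of the 10 genes was not tested. In bulk libraries fewer cells of a type and less RNA per cell cannot be told apart.

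Y-linked genes also differed. All 4 were higher in KO by the test, with Ddx3y at 47.1 to 63.6 CPM in KO and 25.5 to 35.7 CPM in WT libraries, while Xist had 269 to 456 CPM in KO and 397 to 493 CPM in WT libraries (log2 fold change -0.27, adjusted p = 0.516). Y-linked genes and Xist were both counted in every KO and WT library, and the labels do not say whether a library pools animals. With the mean Y-linked level as a covariate, 0 of the 10 genes passed edgeR's test, as did 0 of all genes tested, against 883 without it. The log2 fold change was then -1.32 for Bhlhe41, -2.54 for Cd1d1 and -0.03 for Dtx1, and as the Y-linked level separates the groups, it and the genotype cannot be told apart. In 1 model of all 14 libraries, Bhlhe41 alone passed the test (log2 fold change -1.26, adjusted p = 0.0349), while Cd1d1 (-0.87) and Dtx1 (-0.36) did not.

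In lymphoma B cells, 0 of the 10 genes passed the test for shTet2 against control, where 2.58% of 12797 genes tested did. At an unadjusted p under 0.05 there was 1, Notch2, and DESeq2 and limma-voom also called 0. The median log2 fold change, shTet2 over control, was -0.12 over the 10 genes and -0.00407 over all genes tested. The 2 shTet2 libraries differed from each other more than the 5 controls did for several genes. Replicate 2 lay outside the range of the controls for 6 of the 10 genes. It was above that range for Bhlhe41, Cd1d1 and Cd9 and below it for Bhlhe40, Notch2 and Fcer2a. Replicate 1 lay below the range for Cd1d1 and Cd9. The share of all genes outside the range was not determined, so these counts cannot be called particular to the 10 genes.

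**Figure D3:**
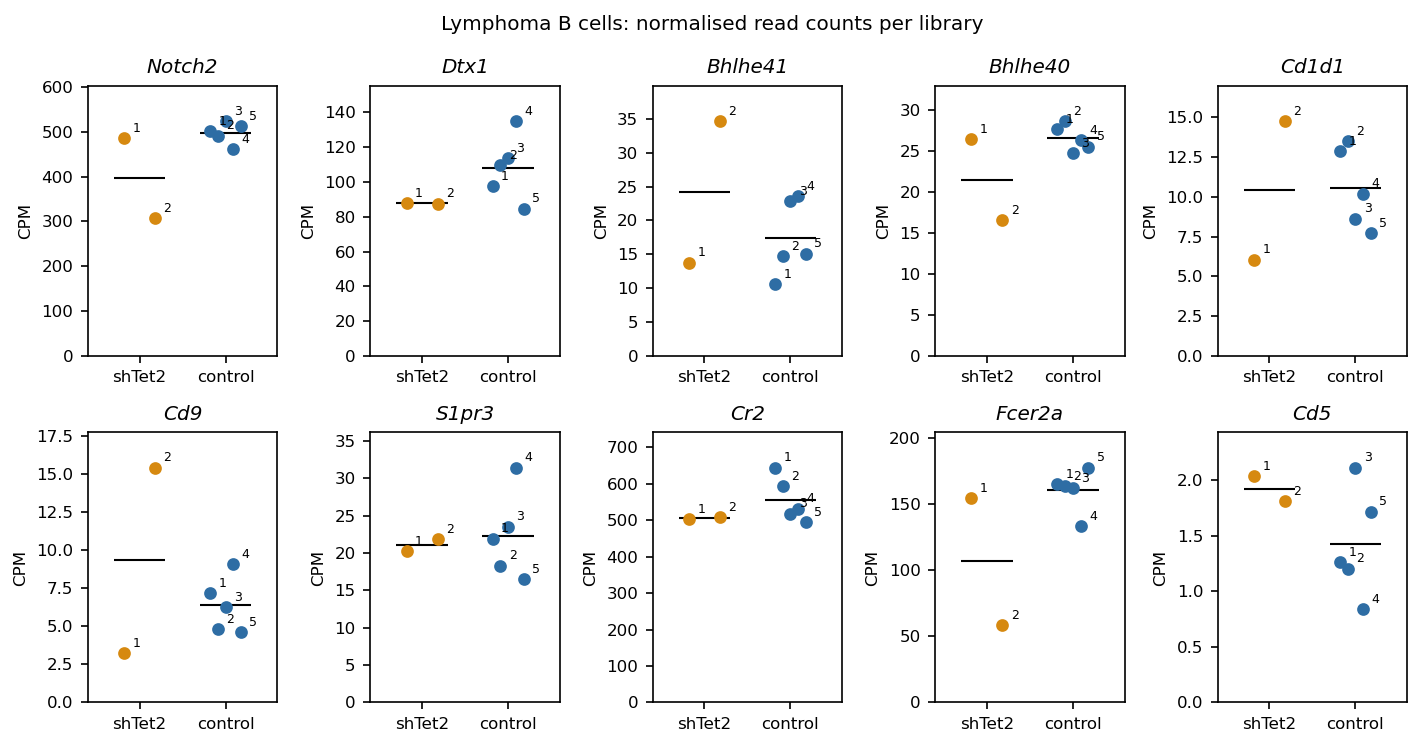
CPM of each gene in the 2 shTet2 libraries (left, orange) and the 5 control libraries (right, blue) of lymphoma B cells; each point is a library with its replicate number and each line is the group mean. The shTet2 replicates lie apart for Cd9 (3.23 and 15.4 CPM), Bhlhe41 (13.8 and 34.7 CPM) and Fcer2a (155 and 58.6 CPM) and together for Cr2 and Dtx1.

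Notch2 had 485 and 308 CPM in shTet2 libraries, against 501, 492, 524, 462 and 513.6 CPM in controls. Only replicate 2 was low, and the log2 fold change was -0.33 (SE 0.15, adjusted p = 0.244). Dtx1 had 87.9 and 87.6 CPM in shTet2 libraries, against 97.5, 110, 114, 135 and 84.7 CPM in controls. Both shTet2 libraries were alike and near the low end of the controls (log2 fold change -0.30, SE 0.15, adjusted p = 0.304). Of 28 other tested Notch pathway genes 0 passed the test and 7 had an unadjusted p under 0.05, the smallest belonging to the receptor gene Notch1, at 28.4 ± 1.001 CPM in shTet2 and 39.1 ± 4.03 CPM in control libraries (SD, n = 2 and 5; log2 fold change -0.45, adjusted p = 0.0642).

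Bhlhe41 had 13.8 and 34.7 CPM in shTet2 libraries, against 10.6, 14.7, 22.8, 23.6 and 15.1 CPM in controls. Replicate 1 lay within the controls and replicate 2 above all of them (log2 fold change 0.44, SE 0.44, adjusted p = 0.632). Bhlhe40 had 26.4 and 16.6 CPM in shTet2 libraries, against 27.7, 28.7, 24.8, 26.4 and 25.6 CPM in controls, so that replicate 2 alone was low (log2 fold change -0.30, SE 0.16, adjusted p = 0.327).

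Cd1d1 had 6.05 and 14.7 CPM in shTet2 libraries, against 12.9, 13.5, 8.62, 10.2 and 7.72 CPM in controls. One shTet2 library was below and the other above the controls, and the log2 fold change was -0.0021 (SE 0.35). Cd9 had 3.23 and 15.4 CPM in shTet2 libraries, against 7.18, 4.82, 6.28, 9.10 and 4.63 CPM in controls, so that replicate 2 was 4.77 times replicate 1 (log2 fold change 0.50, SE 0.57). S1pr3 had 20.2 and 21.8 CPM in shTet2 libraries, against 21.9, 18.3, 23.5, 31.4 and 16.5 CPM in controls (log2 fold change -0.10, SE 0.21). Its shTet2 values were within the controls.

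Cr2 had 504 and 508 CPM in shTet2 libraries, against 644, 595, 518, 532 and 496 CPM in controls (log2 fold change -0.14, SE 0.11). Fcer2a had 155 and 58.6 CPM in shTet2 libraries, against 165, 164, 162, 133 and 177 CPM in controls, with replicate 2 far below all other lymphoma libraries (log2 fold change -0.59, SE 0.36, adjusted p = 0.434). Cd5 had 2.03 and 1.81 CPM in shTet2 libraries, against 1.26, 1.20, 2.11, 0.842 and 1.72 CPM in controls (log2 fold change 0.38, SE 0.35). Cr2 and Cd5 thus lay within the controls in both shTet2 libraries.

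The count depended on which shTet2 library was kept. Without replicate 1, 4 of the 10 genes passed the test, Bhlhe40 (log2 fold change -0.68), Fcer2a (-1.46) and Notch2 (-0.70) lower and Cd9 (1.23) higher, replicate 2 then standing alone and assumed to vary like the controls. Over all genes 2481 were called in that fit, against 330 with both shTet2 libraries and 130 without replicate 2. Without replicate 2, 0 passed the test, and the log2 fold changes were 0.00015 for Bhlhe40, -0.05 for Fcer2a, -0.04 for Notch2 and -1.01 for Cd9. The summed level of the myeloid markers was 46.2 CPM in shTet2 replicate 1 and 147 CPM in shTet2 replicate 2, against 47.4 to 70.8 CPM in controls. That of the follicular dendritic cell markers was 71.9 and 136 CPM in shTet2, against 67.1 to 87.0 CPM in controls. Most of the latter sum was Fcgr2b (64.5 and 120 CPM in shTet2, 60.2 to 80.0 CPM in controls), while Pdpn and Sox9 were at 0 in both groups. None of the 18 myeloid markers was at 0 over either group. The part of myeloid or follicular dendritic cells in the values of replicate 2 was not tested. Among other lists, 0 of 23 tested marginal zone and B1 genes passed the test, with 7 at an unadjusted p under 0.05 (median -0.20). Likewise 0 of 11 follicular B-cell genes did, with 8 at an unadjusted p under 0.05 (median -0.41), Bach2 having the smallest (adjusted p = 0.0640). By contrast, 2 of 10 core GC markers rose, with 7 at an unadjusted p under 0.05 (median 1.07). Over all genes tested, 1.84% were called higher. The GC homing receptor gene S1pr2, also a sphingosine 1-phosphate receptor, had 24.1 ± 8.23 CPM in shTet2 and 3.43 ± 1.98 CPM in control libraries (SD, n = 2 and 5; log2 fold change 2.73, SE 0.44, adjusted p = 0.0297), and Fas had 7.06 ± 0.915 CPM in shTet2 and 2.94 ± 0.679 CPM in control libraries. Among tetraspanins Cd37, known from B cells, fell (181 ± 21.4 CPM in shTet2 and 252 ± 7.02 CPM in control libraries), and among plasma cell markers Xbp1 (70.6 ± 5.22 CPM in shTet2 and 40.0 ± 5.61 CPM in control libraries) and Prdm1 (11.7 ± 4.89 CPM in shTet2 and 4.92 ± 1.25 CPM in control libraries) rose.

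**Figure D4:**
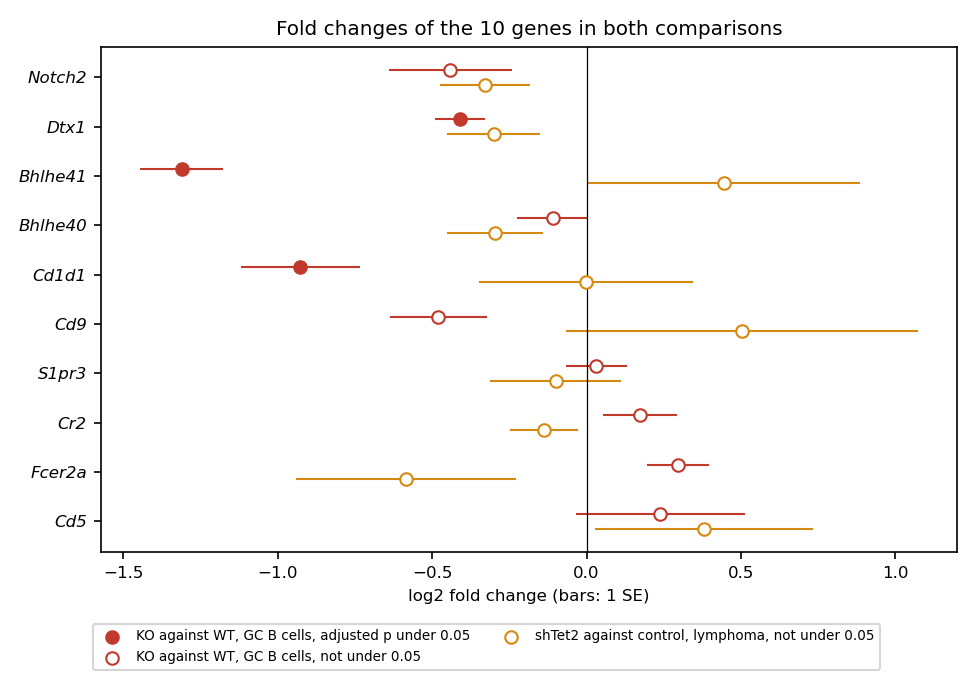
Log2 fold change with 1 SE of the 10 genes for KO over WT GC B cells (red, upper point of each pair) and shTet2 over control lymphoma B cells (orange, lower point); filled points passed the test at an adjusted p under 0.05. Bhlhe41 stands at -1.31 in the first comparison and 0.44 in the second, and the 3 filled points are Dtx1, Bhlhe41 and Cd1d1 in GC B cells.

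Whether the effects differ between the cell kinds was tested as the shTet2 effect minus the KO effect in 1 model of all 14 libraries. Of the 10 genes 1 passed the test, Bhlhe41, with a difference of 1.72 on the log2 scale (SE 0.44, adjusted p = 0.0454), where 4.99% of 15441 genes tested did, 3.39% with a positive difference. This call was close to the threshold and was lost in 10 of 14 fits that left out 1 library, with a difference of 0.88 (adjusted p = 0.309) without shTet2 replicate 2. It was also lost when structural RNA rows were removed (adjusted p = 0.0503), with limma-voom (0.0705) and with no filter on low counts (0.0944). The difference was 0.89 for Cd1d1 (SE 0.39, adjusted p = 0.222), 0.95 for Cd9 (SE 0.58, adjusted p = 0.405) and -0.91 for Fcer2a (SE 0.36, adjusted p = 0.179). For Notch2 and Dtx1 it was 0.08 each (SE 0.27 and 0.17). The difference was thus not shown for Cd1d1, Cd9, Fcer2a, Notch2 or Dtx1 in this fit. Without shTet2 replicate 1 the count was 5, with Bhlhe41, Cd1d1 and Cd9 positive and Fcer2a and Bhlhe40 negative. Over all genes 2001 were called in that fit, against 771 with both shTet2 libraries and 283 without shTet2 replicate 2, and the lone shTet2 library was assumed to vary like the other groups.

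Levels between the cell kinds were compared in the same model, as control lymphoma over WT GC B cells, where cell kind, count table, share of structural RNA and sex-linked expression cannot be told apart. The Y-linked gene Ddx3y was at 0 counts in every control lymphoma library and at 31.1 ± 5.15 CPM in WT libraries, and Kdm5d, Uty and Eif2s3y were likewise at 0 in control lymphoma. Xist had 1333 ± 107 CPM in control lymphoma and 433 ± 52.3 CPM in WT libraries (SD, n = 5 and 3). These CPM were scaled within each count table, so the size of the difference cannot be read from them. In the model of all 14 libraries, 1 of these 5 genes was called higher and 4 lower in control lymphoma. Of the 10 genes 7 passed the test, all higher in control lymphoma cells. Of all genes tested 80.7% passed it, 40.2% as higher and 40.4% as lower. Core GC markers went the other way, with 9 of 10 lower and a median log2 fold change of -3.43, while 11 of 11 follicular B-cell genes were higher (median 2.15). The largest difference among the 10 genes was that of Notch2, 3.82 on the log2 scale (SE 0.21, adjusted p = 9.34e-11), followed by Cr2 at 1.94 (SE 0.12, adjusted p = 1.24e-11). Cd1d1 differed by 1.28 (SE 0.27, adjusted p = 0.000332) and Bhlhe41 by 1.09 (SE 0.30, adjusted p = 0.00449). Cd5 (0.73), Fcer2a (0.61) and S1pr3 (0.45) passed too, Cd5 and Fcer2a with adjusted p = 0.0404 and 0.0277. The differences of Dtx1 (0.20, adjusted p = 0.0964), Bhlhe40 (0.22, adjusted p = 0.120) and Cd9 (0.17, adjusted p = 0.684) did not pass. In 14 fits leaving out 1 library each, Notch2, Cr2, Cd1d1 and Bhlhe41 passed in all 14, S1pr3 in 13, Cd5 in 10 and Fcer2a in 9.

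Per length of exon, in RPKM (CPM divided by exon length in kilobases) with scaling over all 14 libraries, levels can be set beside each other between genes. Notch2 averaged 59.2 ± 18.7 RPKM in shTet2 and 73.3 ± 3.74 RPKM in control lymphoma libraries, against 3.95 ± 1.03 RPKM in KO and 5.18 ± 0.243 RPKM in WT GC B-cell libraries (SD, n = 2, 5, 4 and 3). By group mean it lay near the middle of the 10 genes in GC B cells, between S1pr3 above and Cd9 below. In lymphoma cells it was among the most abundant of the 10, and the ranges of the lymphoma and GC groups were apart. Cr2 averaged 109 ± 0.547 RPKM in shTet2 and 119 ± 12.6 RPKM in control lymphoma libraries, against 36.1 ± 3.22 RPKM in KO and 30.8 ± 5.85 RPKM in WT libraries. The neighbours shTet2 and control overlapped, as did KO and WT. Fcer2a averaged 74.5 ± 47.4 RPKM in shTet2, 110 ± 11.3 RPKM in control lymphoma, 92.2 ± 9.86 RPKM in KO and 72.5 ± 7.14 RPKM in WT libraries, and each neighbour in that order of levels overlapped the next. Dtx1, at 24.2 ± 0.749 RPKM in KO and 31.1 ± 2.60 RPKM in WT libraries, was 29.5 ± 0.0684 RPKM in shTet2 and 35.8 ± 6.21 RPKM in control lymphoma libraries. Only KO lay apart from its neighbour for Dtx1. Group means ran from 10.3 to 12.6 RPKM for Bhlhe40 and from 5.71 to 7.70 RPKM for S1pr3. In the order of levels, control lymphoma lay apart from WT for Bhlhe40 and shTet2 apart from KO for S1pr3, and the other neighbours overlapped.

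Bhlhe41 averaged 6.06 ± 3.69 RPKM in shTet2 and 4.28 ± 1.40 RPKM in control lymphoma libraries, against 0.856 ± 0.0997 RPKM in KO and 2.05 ± 0.234 RPKM in WT libraries. In this order of levels the lymphoma groups overlapped each other, while control lymphoma, WT and KO were each apart from the next. Cd1d1 averaged 6.34 ± 3.75 RPKM in shTet2 and 6.35 ± 1.47 RPKM in control lymphoma libraries, against 1.39 ± 0.0739 RPKM in KO and 2.55 ± 0.774 RPKM in WT libraries, with the lymphoma groups overlapping and the others apart. Cd9 was at 7.15 ± 6.60 RPKM in shTet2, 4.84 ± 1.41 RPKM in control lymphoma, 3.24 ± 0.654 RPKM in KO and 4.36 ± 0.369 RPKM in WT libraries, and Cd5 at 1.46 ± 0.120 RPKM in shTet2, 1.07 ± 0.373 RPKM in control lymphoma, 0.815 ± 0.180 RPKM in KO and 0.669 ± 0.232 RPKM in WT libraries. Neighbouring groups overlapped for both on this scale; for Cd9, KO and WT touched here and were apart on the CPM scale of their own table.

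**Figure D5:**
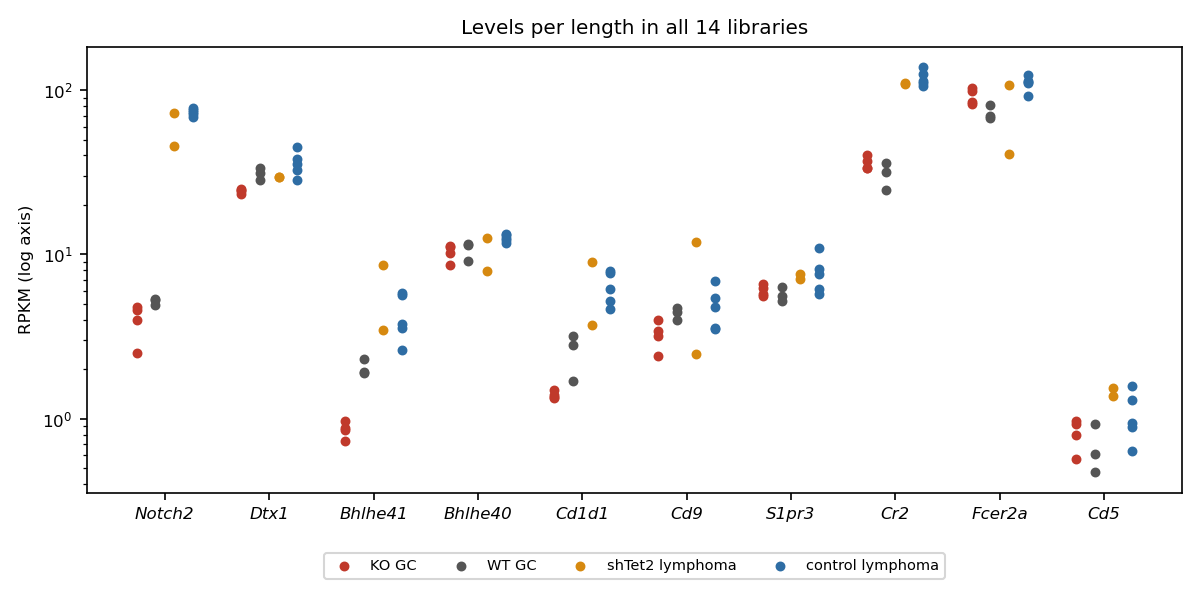
RPKM on a log axis of the 10 genes in all 14 libraries, one point per library, in KO and WT GC B cells (red, grey) and shTet2 and control lymphoma B cells (orange, blue). Notch2 lies at 2.49 to 4.76 RPKM in KO and 4.90 to 5.34 RPKM in WT libraries, and at 45.9 to 72.4 RPKM in shTet2 and 68.2 to 77.3 RPKM in control lymphoma libraries.

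For each gene that passed the test in GC B cells, the most similar patterns over the 14 libraries were sought among 12274 genes, by the root mean square difference of log2 CPM after centring each gene on its own mean. They were Rcn3 (0.29) and Phactr2 (0.32) for Bhlhe41, Tmem154 (0.22) and Akap17b (0.24) for Cd1d1, and Hk1 (0.13) and Urgcp (0.14) for Dtx1. The points share libraries, depth and the split between cell kinds, so these likenesses are a description only.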

How the data were processed

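Per the labels' protocols, RNA had been extracted with Trizol and RNeasy and made into TruSeq stranded mRNA libraries. Per the submitters' processing notes, alignment to GRCm38.p3 used STAR 2.3.0e. Raw counts per gene were deposited by the authors in 2 tables. They came from featureCounts 1.5.1 with GENCODE vM3 exons, with no strand or paired-end option, per the file headers. The summed exon length per gene in the deposited tables gave RPKM. Coordinates are those of the files; exons of Cd9 share 30 bases with RP23-389F23.3 on the other strand, those of Bhlhe40 overlap as stated, and those of the other 8 genes overlap none.

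Titles gave the group and replicate of all 14 libraries. Tests were edgeR 4.0.16 quasi-likelihood tests in R 4.3.3, with TMM scaling, filterByExpr by group, robust fits and Benjamini-Hochberg adjustment over all genes tested. Groups that do not overlap were compared in CPM. The tests had been tested on simulated data. The 10 genes and all lists were chosen with earlier results of these data known. Of each list the text names up to 3 genes past the threshold with the smallest p, or else the 1 with the smallest p, and others that were chosen after their values were seen (Hes1, Rbpj, Mybl1 and the full list of 10 that fell). For likeness, predicted and clone-based symbols and antigen receptor segments were left out. Of the listed genes, 2 were not matched (Ighd and Jchain). Structural RNA rows are 10 hand-picked rows. Counting error aside, replicates differed in every pair, so none was a copy.

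Alternatives were DESeq2 size factors, removal of structural RNA rows, DESeq2 1.42.0, limma-voom (limma 3.58.1), no filter, a filter at 1 CPM, 1 model of all libraries, a replicate block, a Y-linked covariate and leaving out each library. Some results are not reported here.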

Additional observations from a re-analysis of the deposited data

Results flagged for a closer look

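For Bhlhe41, the shTet2 effect in lymphoma B cells minus the KO effect in GC B cells was 1.72 on the log2 scale (SE 0.44, edgeR adjusted p = 0.0454). It drew attention because a test of the difference itself passed the threshold in this fit, close to it. The call was lost in 10 of 14 fits leaving out 1 library, and in 3 of 6 other alternatives: structural RNA rows removed, limma-voom and no filter. Bhlhe41 was lower in 4 of 4 KO libraries than in every WT library, while shTet2 replicate 2 was above all controls and shTet2 replicate 1 was within them. The difference was 2.23 without shTet2 replicate 1 (edgeR adjusted p = 0.000641) and 0.88 without shTet2 replicate 2 (adjusted p = 0.309).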

How the results depend on the processing

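The log2 fold changes of Bhlhe41, Cd1d1 and Dtx1 for KO against WT were negative under every alternative run, that of Dtx1 only -0.03 with the Y-linked covariate, and calls were lost for Cd1d1 and Dtx1 in 1 model of all libraries, for all 3 genes with the Y-linked covariate and for Cd1d1 under the replicate block. The count of 3 for KO against WT became 5 with no filter, 4 with DESeq2's Wald test (Cd9 added), 1 in 1 model and 0 with the Y-linked covariate, and was 3 to 5 with 1 library left out. Replicate numbers were not shown to pair libraries. In deviations from the group mean, same-numbered ones correlated at 0.03 and -0.02 in GC B cells and at -0.10 and -0.0016 in lymphoma cells. Deviations of the 2 shTet2 libraries mirror each other, so the lymphoma values cannot show whether numbers pair libraries. With the replicate number as a block the count was 2 for KO against WT and 0 for shTet2 against control; over all genes it was 570 and 4. Counts without 1 library were 0 to 4 for shTet2 against control, 0 to 5 for the difference between effects, and 5 to 8 for control lymphoma against WT. The difference between effects gave 0 with structural rows removed, limma-voom or no filter. Signs turned, the cause not tested, for KO against WT under the block for Bhlhe40 (0.011) and Cd5 (-0.061), and under the Y-linked covariate for Cr2 (-1.41), Fcer2a (-0.28), Cd9 (0.51) and S1pr3 (-0.67). For shTet2 against control they turned for Cd1d1 with structural rows removed (0.00099), no filter (0.023) and 1 model (0.018), and for S1pr3 under the block (0.059). With 1 library left out, ranges that crossed 0 were S1pr3 -0.029 to 0.12 for KO against WT; Cd1d1 -0.76 to 0.52, Bhlhe40 -0.68 to 0.00015, Bhlhe41 -0.37 to 0.95, Cd9 -1.01 to 1.23 and S1pr3 -0.20 to 0.065 for shTet2 against control; Notch2 -0.29 to 0.34, Cd5 -0.19 to 0.34, Bhlhe40 -0.60 to 0.043 and Cd9 -0.60 to 1.68 for the difference; and Cd9 -0.014 to 0.26 for control lymphoma against WT. All-gene counts moved by over 1.5 times for KO against WT (883) with no filter (1365), the block (570) and the Y-linked covariate (0). For shTet2 against control (330) they were 593 with DESeq2, 782 with no filter, 840 in 1 model and 100 to 2481 with 1 library left out. For the difference (771) they were 1198 with DESeq2 and 283 to 2001 with 1 library left out. For control lymphoma against WT the median of all genes shifted by 0.14 with DESeq2 and by -0.11 with no filter; Bhlhe40 (0.36) and Dtx1 (0.34) then passed the test with DESeq2 scaling, and Cd5 (0.62) and Fcer2a (0.50) did not with no filter. Depth limits Cd5 most, with 66 and 81 counts in all in the shTet2 and control lymphoma groups.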
